A study of Mus musculus with 12 samples.

Results

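Natural killer (NK) cells among the CD45+ immune cells of MC38 tumors were selected from the droplets by their transcripts and made up 463 of 128912 cells. A droplet was kept with over 200 but under 5000 genes, when its mitochondrial genes took no more than 10% of its unique molecular identifiers (UMIs, each a counted transcript). To be taken as an NK cell it had to hold at least 1 UMI of Ncr1 or Klrb1c, and none of Cd3d, Cd3e, Cd3g, Cd8a, Cd8b1, Cd79a, Siglech, Adgre1 or Csf1r. Ncr1 encodes the activating receptor NKp46 and Klrb1c encodes NK1.1, while the excluded genes mark T cells, B cells, plasmacytoid dendritic cells and macrophages. These 11 genes chose the cells, so their values are a description and not a result.

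The tumors were subcutaneous MC38 tumors, grown from a colon adenocarcinoma cell line, in C57BL/6 mice, and all were collected on day 17 after implantation. The 12 mice fell into 4 groups of 3, which received vehicle or the EZH2 inhibitor (EZH2i) PF-06821497 at 100 mg/kg, subcutaneously each day, for 7 or 16 days. The inhibitor was given to the whole animal, its tumor included, and CD45+ cells were enriched on magnetic beads. The study's methods give the mice as female and no age. No label ties the 12 library numbers on the barcodes to mice or groups, so the matrix was read as 1 pooled sample, and no comparison of EZH2i with vehicle and no p-value is given for NK cells.

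NK cells are innate lymphocytes that kill stressed or transformed cells without a rearranged antigen receptor. They weigh signals from activating and inhibitory receptors, many of them encoded side by side in the NK gene complex, and kill by releasing perforin and granzymes from granules. They also secrete interferon-γ and chemokines such as XCL1, which draws in cross-presenting dendritic cells. Group 1 innate lymphoid cells (ILC1), a related lineage, share NKp46 and NK1.1 and differ from conventional NK cells in residence and in integrins.

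The 463 cells came from all 12 libraries and were unevenly spread, at 4 to 179 cells a library (median 20.5). Library 5 alone gave 38.7% of them. They were 0.359% of all cells (exact Clopper-Pearson 95% interval 0.327 to 0.393%, counting error only). The lowest share of any library was 0.0354% (library 4), the median 0.312% and the highest 0.915% (library 5). The interval of library 5 lay above those of 10 of the other 11 libraries and overlapped that of library 7. For each 100 CD8 T cells there were 0.959 to 44.4 NK cells (median 14.0). The highest of these came from library 4, where 4 NK cells stood beside 9 CD8 T cells.

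**Figure D1:**
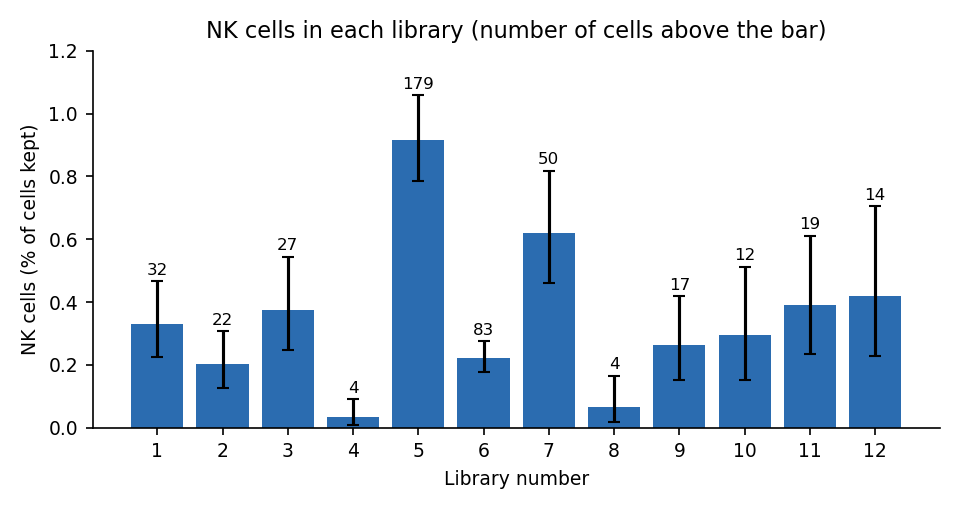
Share of NK cells among the cells kept in each of the 12 libraries, in percent; bars are shares, error bars exact 95% Clopper-Pearson intervals (counting error only), and the number above each bar is the count of NK cells. Library 5 reaches 0.915% with 179 cells, and libraries 4 and 8 hold 4 cells each.

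NK cells had a median of 2480 UMIs and 1121 genes, and their library medians ran from 1383 to 7547 UMIs. Libraries 1 to 6 held UMIs of 4 Y-linked genes in 39.4 to 70.9% of their cells and libraries 7 to 12 held none. The study's methods list female mice, which carry no Y chromosome, and the source of these UMIs is not known. The part of this in the results was not tested. Library 4, which held few lymphocytes, added 4 NK cells. Across libraries, 2261 barcode sequences recurred, and 17 NK cells carried such a sequence, none of them shared with another NK cell. Values by library are given below for the 6 libraries with at least 20 NK cells and 20 CD8 T cells, which hold 393 of the NK cells. They are libraries 1, 2, 3, 5, 6 and 7, of which only library 7 lacked Y-linked UMIs.

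The label was described on genes that the selection did not use. The gene lists were chosen with earlier results of these data known, and Gzma and Klre1 were markers given beforehand. The CD8 T cells and B cells were chosen without UMIs of Ncr1 or Klrb1c, so the values are no independent check. Of 20 genes of a list of NK lineage genes, an NK cell had UMIs of a median of 8. The median was 6 in T cells with a UMI of Ncr1 or Klrb1c, 4 in CD8 T cells and 0 in B cells. With every cell thinned to 500 UMIs the medians were 3, 2, 1 and 0 in the same order. Klre1, an NK receptor gene, was found in 59.6% of NK cells (95% interval 55.0 to 64.1%), 23.2% of CD8 T cells and 0 of 402 B cells, which allows up to 0.746% of cells with a UMI and says nothing of cells that express the gene without one. Gzma, encoding granzyme A, was found in 54.4% (49.8 to 59.0%), 11.2% and 0%. The median depth of the B cells was 1326 UMIs and that of the CD8 T cells 3006. At 500 UMIs a cell, Gzma was seen in 42.3% of NK cells and 6.05% of CD8 T cells, and Klre1 in 18.6% and 4.92%.

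A small number of the cells went against the label, by a limit that does not set NK cells apart from T cells. Whether it sets them apart from ILC1 was not tested. At least 2 of the 20 lineage genes were seen in 93.7% of NK cells and 89.2% of CD8 T cells. In T cells with a UMI of Ncr1 or Klrb1c the share was 96.8%. Of the 463 cells, 17 had no UMI of the 20 lineage genes and 12 had UMIs of 1 of them. These 29 cells carried 21402 CPM (the UMIs of a gene or list, scaled to a total of 1000000 UMIs over the pooled cells) on a list of 12 macrophage genes, against 2592 CPM in the other 434 cells. Of the 29 cells, 12 came from library 5 and 10 from library 6. The selection also rested on few transcripts, since 265 cells held a single UMI of the selecting genes. Ncr1 alone was seen in 124 cells, Klrb1c alone in 226 and both in 113. Outside the limit stood 117 cells with Ncr1 or Klrb1c that failed by 1 UMI of an excluded gene, with a median of 6 lineage genes, and another 712 cells that failed by more.

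CD8 T cells, the other killer lymphocytes of these tumors, served as the comparison. They were 3920 cells with UMIs of a Cd3 gene and of Cd8a or Cd8b1 and none of Ncr1, Klrb1c, Cd79a, Siglech, Adgre1 or Csf1r. Genes entered with at least 20 CPM in either population, and were called at a 2-fold difference in pooled CPM. Of 5914 genes, 207 were called higher in NK cells (3.5%) and 217 lower (3.67%), and the median log2 ratio of all was -0.02. Counts of called genes in the lists below are descriptions, to be read beside these shares. Intervals on levels are exact Poisson intervals and those on ratios are exact binomial ones, both at 95% and for counting error only. In 6 of 6 libraries the direction was the same for 121 of the higher and 162 of the lower genes. These libraries gave 393 of the pooled NK cells on which the calls were made. Such agreement was thus fixed in part and is a description. In such pooled droplets a gene of few cells and a low level in many cells give the same CPM, so shares of cells are given beside levels.

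**Figure D2:**
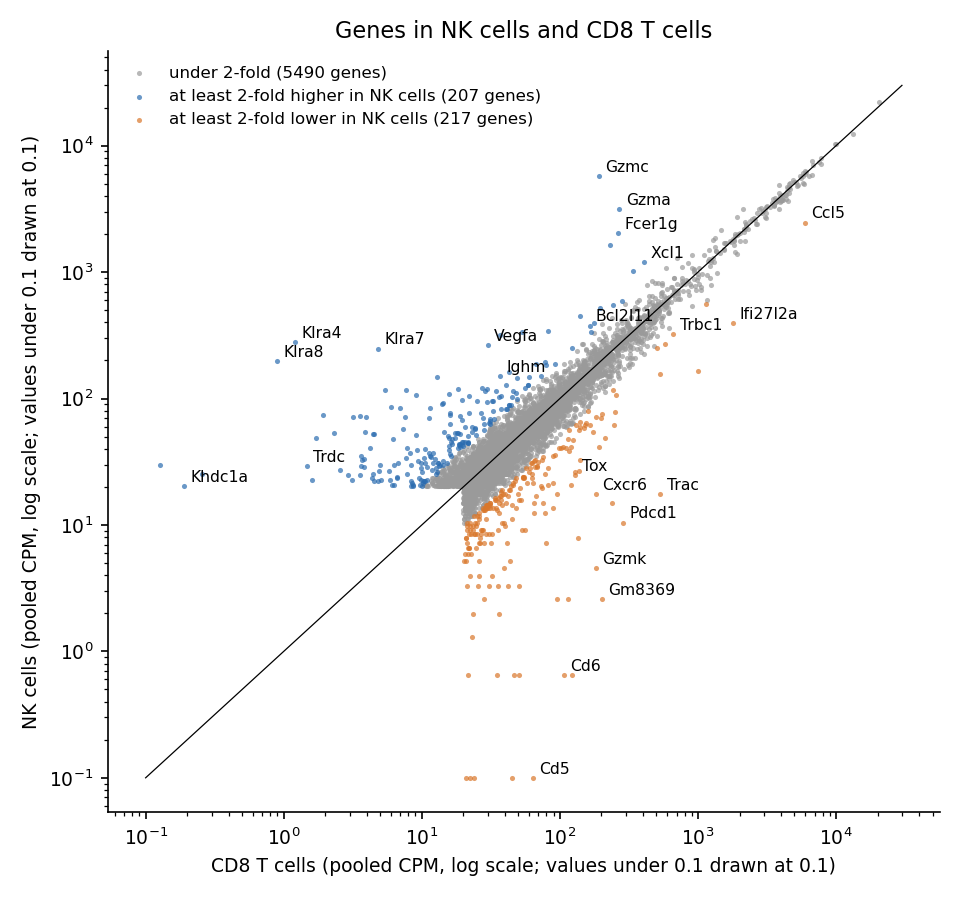
Pooled CPM of 5914 genes in NK cells (vertical) and CD8 T cells (horizontal), both on log scales, with values under 0.1 drawn at 0.1; blue genes are at least 2-fold higher in NK cells and orange ones at least 2-fold lower. Klra4 and Klra8 lie far left of the diagonal at 281 and 196 CPM in NK cells, and Trac, Pdcd1 and Gzmk lie far below it.

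Granzymes A and C stood far higher in NK cells than in CD8 T cells, and granzyme K far lower. Gzmc, encoding granzyme C, reached 5711 CPM in NK cells (5592 to 5832) and 191 CPM in CD8 T cells, and Gzma reached 3135 CPM (3047 to 3225) and 270 CPM. Over the 6 libraries Gzma ran from 763 through a median of 2859 to 7330 CPM in NK cells and from 12.7 through 73.8 to 570 CPM in CD8 T cells. The lowest NK library thus lay above the highest CD8 library, and the pooled level was 11.6-fold higher (11.1 to 12.1). Gzmc ran from 1746 through 4276 to 8947 CPM in NK cells and from 10.7 through 114 to 1007 CPM in CD8 T cells, again with no overlap. Its pooled ratio of 29.9 (28.6 to 31.1) was 65.9 without library 5. Gzmc UMIs were concentrated in few cells, with 36.6% of them in the 10 highest cells and a largest value of 909 in a single cell.

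Granzyme B and perforin differed less. Gzmb stood at 1073 CPM in NK cells and 582 CPM in CD8 T cells, a ratio of 1.84 (1.75 to 1.94), and was higher in 5 of 6 libraries, with overlapping ranges of 602 to 1452 and 305 to 884 CPM. Prf1, the pore-forming protein of the granules, stood at 398 and 177 CPM, a ratio of 2.25 (2.06 to 2.46) that was 1.89 without library 5. Its ranges of 238 to 539 and 71.1 to 481 CPM overlapped, and it was higher in 5 of 6 libraries. Nkg7, a granule membrane gene, went the other way, at 1434 CPM in NK cells and 1841 CPM in CD8 T cells (1.28-fold lower, 1.23 to 1.34), and was lower in 6 of 6 libraries. Srgn, the granule proteoglycan serglycin, was near equal at 1467 and 1349 CPM.

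Gzmk, which lies beside Gzma on chromosome 13, showed the opposite pattern to its neighbour. Gzma lies at chr13:113093825-113100981 and Gzmk at chr13:113171608-113225908, both on the minus strand (mm10, GENCODE M21). Gzmk had 7 UMIs in all NK cells, 4.57 CPM (1.84 to 9.41), against 184 CPM in CD8 T cells, and was 40.2-fold lower (19.5 to 100). The NK libraries ran from 0 to 9.81 CPM and the CD8 libraries from 44.2 to 229 CPM. Without library 8 the ratio was 21.8-fold.

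The granzyme genes of chromosome 14 (Gzmb, Gzmc, Gzmd, Gzme, Gzmf and Gzmg, chr14:56117626-56262260) did not all share the pattern of Gzmc. Gzmd, Gzme and Gzmg were 6.37-fold, 3.76-fold and 21.6-fold higher in the pooled NK cells. These ratios rested on library 5 and were 0.96, 0.66 and 0.59 without it, below the level of CD8 T cells. Gzmf stood at 486 and 494 CPM, and 734 of its 744 NK UMIs came from library 5, without which it was 23.7-fold lower in NK cells. Gzmd was seen in 29 NK cells, Gzme in 26, Gzmf in 23 and Gzmg in 9, and 28, 25, 20 and 9 of these also held Gzmc. The genes are close copies of each other, so reads could be assigned to a neighbour. Of 16 granule genes listed, 15 entered the comparison, with a median log2 ratio of 0.90. Called higher were 6 (Gzmc, Gzmg, Gzma, Gzmd, Gzme, Prf1) and lower 1 (Gzmk), beside 3.5% and 3.67% among all genes. Without library 5 the calls of Gzmd, Gzme, Gzmg and Prf1 were lost.

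**Figure D3:**
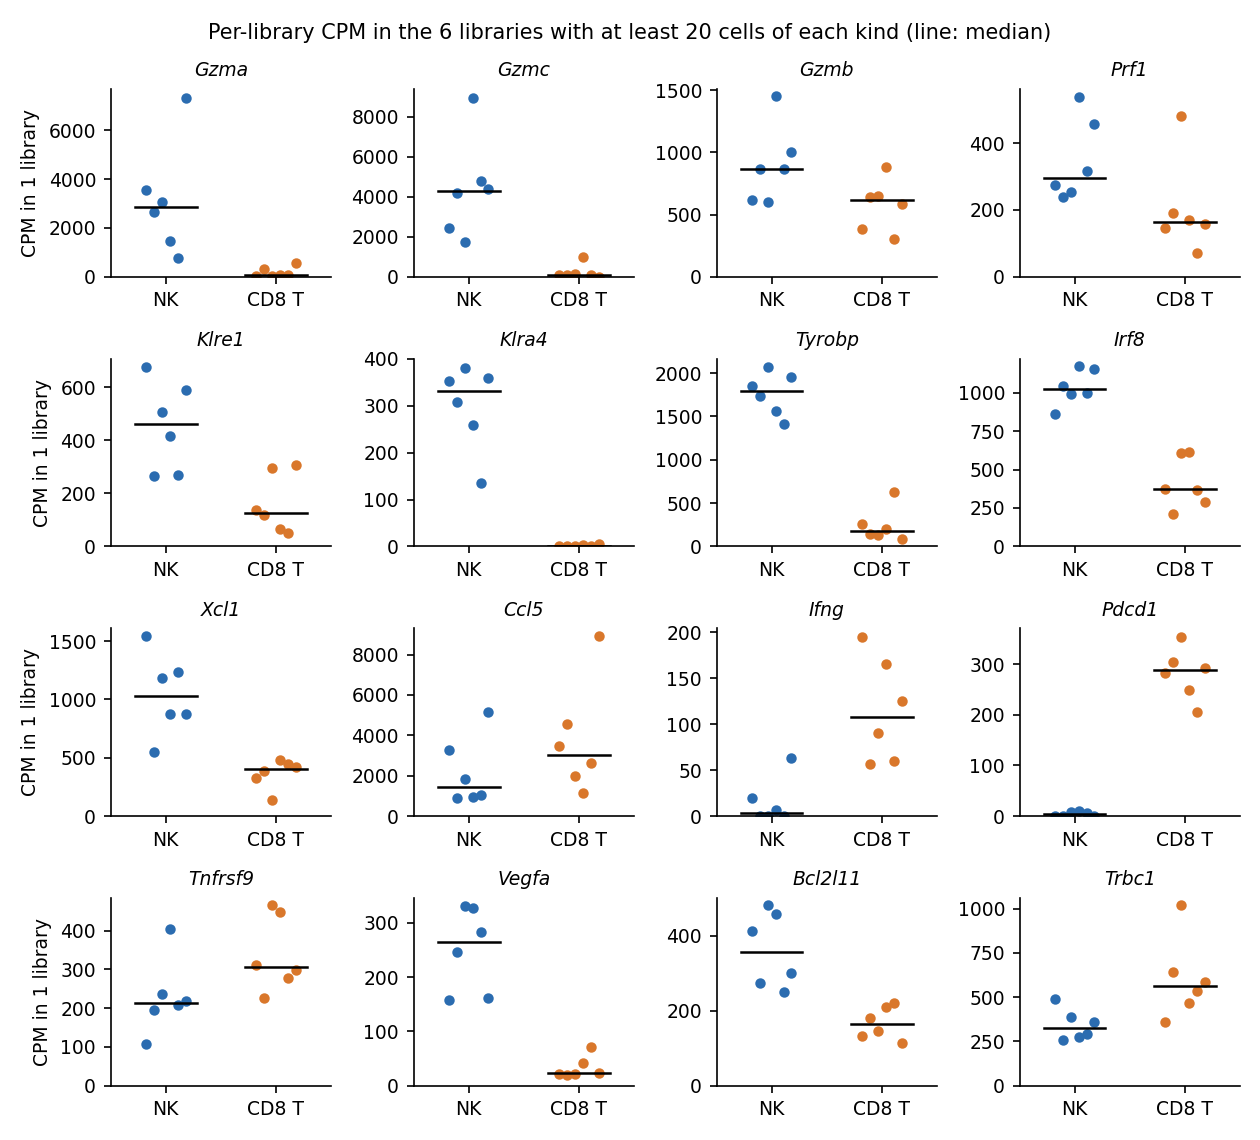
CPM of 16 genes in NK cells (blue) and CD8 T cells (orange), 1 point for each of the 6 libraries that hold 20 or more of each kind and a line at the median, on linear axes from 0. The ranges do not overlap for Gzma, Gzmc, Klra4, Tyrobp, Irf8, Xcl1, Vegfa, Bcl2l11 and Pdcd1 and overlap for Gzmb, Prf1, Klre1, Ccl5, Ifng, Tnfrsf9 and Trbc1.

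Receptors of the NK gene complex on chromosome 6 gave 7 of the 15 highest ratios among genes with the same direction in 6 of 6 libraries. The complex holds 24 measured Klr genes, over 2638 kb (chr6:128609227-131247362). All 24 had UMIs in NK cells. Leaving out Klrb1c, 16 entered the comparison, and 12 were called higher and none lower, beside 3.5% and 3.67% among all genes. Klrb1c, a gene of this complex, helped choose the NK cells and was barred from the CD8 T cells. This may have fixed the count and the ratios in part, which was not tested. The Klra genes encode Ly49 receptors, which read MHC class I on other cells. Klra4 (Ly49D) and Klra8 (Ly49H), both activating, stood at 281 and 196 CPM in NK cells and at 1.21 and 0.892 CPM in CD8 T cells, so that they were 232-fold (147 to 389) and 220-fold (129 to 408) higher. In NK cells Klra4 ran from 135 through 331 to 382 CPM and in CD8 T cells from 0 to 4.59 CPM. Without library 3 the ratio of Klra8 was 407.

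Inhibitory Ly49 receptors were also higher. Klra7 (Ly49G) stood at 249 and 4.84 CPM, a ratio of 51.4 (40.1 to 66.6), Klra1 (Ly49A) at 73.8 and 1.91 CPM, a ratio of 38.6, and Klra9 at 117 and 7.65 CPM, a ratio of 15.3. Each was higher in 6 of 6 libraries. Klra3 (Ly49C) followed at a ratio of 7.44, which was 14.2 without library 6, and Klra5 at 2.88. A UMI of at least 1 of the 11 Klra genes was found in 337 NK cells, 72.8%, against 13.4% of CD8 T cells and 2.74% of B cells. T cells with a UMI of Ncr1 or Klrb1c came near the NK cells, with such a UMI in 96 cells, 61.9%. Single cells differed in the set they showed, with UMIs of 1 gene in 122 NK cells, of 2 in 106, of 3 in 72 and of 4 or more in 37. The Klra genes are close copies too, and reads that match several of them could be lost or moved.

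The CD94 and NKG2 receptors separated the populations less. Klrd1 (CD94) stood at 820 and 490 CPM, Klrk1 (NKG2D) at 391 and 203 CPM and Klre1 at 448 and 141 CPM, ratios of 1.67, 1.93 and 3.18, and each was higher in 6 of 6 libraries. The ratio of Klrk1 was 2.07 without library 5. Klre1 ran from 265 to 677 CPM in NK cells and from 50.6 to 307 CPM in CD8 T cells, so the ranges overlapped. Klrc1 (NKG2A), the inhibitory partner of CD94, was lower in NK cells, at 116 and 189 CPM (ratio 0.61), in 6 of 6 libraries. Klri2, Klrb1f and Klrb1a were 11.7-fold, 20.3-fold and 18.2-fold higher, and Klrb1f was 33.5-fold higher without library 8.

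**Figure D4:**
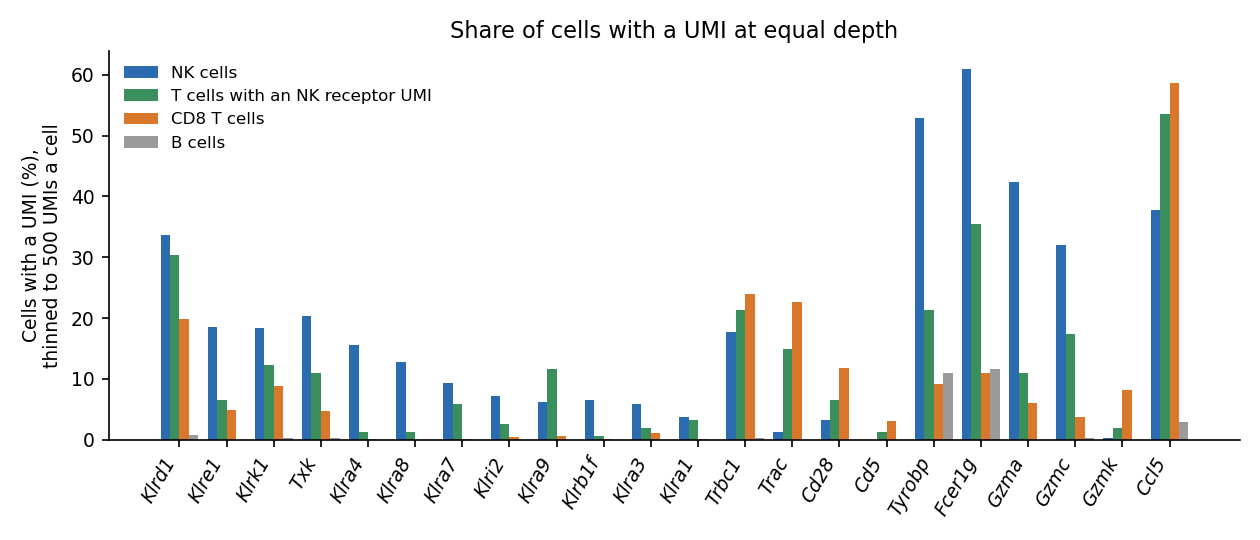
Share of cells with at least 1 UMI of 22 genes, in percent, after every cell was thinned to 500 UMIs, in NK cells (blue), T cells with an NK receptor UMI (green), CD8 T cells (orange) and B cells (grey). Fcer1g and Tyrobp are the most frequent in NK cells at 60.9 and 52.9%, while Trac is found in 1.30% of NK cells and 22.6% of CD8 T cells.

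The signalling adaptors Fcer1g and Tyrobp were called higher in NK cells. Fcer1g, the γ chain that serves NKp46 and CD16, stood at 2041 CPM in NK cells (1970 to 2113) and 264 CPM in CD8 T cells, and Tyrobp (DAP12), which serves the activating Ly49 receptors, at 1645 (1581 to 1710) and 230 CPM. Fcer1g ran from 1619 through 2042 to 2434 CPM in NK cells and from 134 through 229 to 717 CPM in CD8 T cells. Tyrobp ran from 1418 through 1797 to 2069 CPM and from 84.1 through 175 to 632 CPM. Neither gene's ranges overlapped, and UMIs were found in 92.2 and 92.0% of NK cells. Myeloid cells express both genes as well, and 20.9 and 25.9% of B cells held a UMI of them. Without library 6 the ratio of Tyrobp was 10.8 in place of 7.15. Cd247 (CD3ζ), an adaptor that NK cells use beside the γ chain and T cells in their receptor, was lower, at 28.1 and 81.9 CPM, and Hcst (DAP10) stood at 311 and 509 CPM.

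Other activating and signalling genes were called higher at lower levels. The genes were Txk, a Tec family kinase, at 344 and 82.5 CPM (ratio 4.17), Sh2d1b1 (EAT-2) at 47.7 and 6.18 CPM (ratio 7.71, or 14.3 without library 6), Cd244 (2B4) at 95.3 and 25.0 CPM and Syk at 30.7 and 13.2 CPM. Fcgr3 (CD16) stood at 88.1 and 43.9 CPM, and its ratio of 2.01 was under 2, and as low as 1.82, when any of libraries 1, 2, 3, 4, 8, 9 or 12 was left out. In the cells with both selecting genes the ratios of Syk and Fcgr3 were 1.56 and 1.27. Slamf6 had 5 UMIs in NK cells, 3.26 CPM against 35.7 CPM. Of 19 activating receptor and adaptor genes, 18 entered, 8 were called higher and 2 lower, beside 3.5% and 3.67% among all genes.

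The chemokine genes Xcl1 and Cxcl10 stood higher in NK cells, and those of interferon-γ, CCL3 and CCL5 stood lower. Xcl1 ran from 547 through 1031 to 1541 CPM over the NK libraries and from 135 through 404 to 481 CPM over the CD8 libraries, which did not overlap. The pooled levels were 1197 and 406 CPM, a ratio of 2.95 (2.80 to 3.10). Cxcl10 stood at 520 and 196 CPM (ratio 2.65) and was higher in 6 of 6 libraries. Ifng had 33 UMIs in 18 NK cells, 21.5 CPM (14.8 to 30.3), against 89.4 CPM in CD8 T cells. It ran from 0 through 3.19 to 63.6 CPM in the NK libraries and from 56.5 through 108 to 194 CPM in the CD8 libraries. The ranges met only at the highest NK library, and the pooled level was 4.15-fold lower (2.94 to 6.05), or 2.75-fold without library 5.

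Ccl5 ran from 891 through 1445 to 5179 CPM in NK cells and from 1124 through 3046 to 8905 CPM in CD8 T cells. It was lower in NK cells in 6 of 6 libraries although the ranges overlapped. The pooled levels of 2462 and 5958 CPM gave a 2.42-fold lower value, which was 1.75-fold without library 8. As the median of the 6 libraries the ratio of Ccl5 was 0.71. Ccl3 and Ccl4, which encode chemokines, stood at 56.8 and 138 CPM and at 260 and 484 CPM. The call of Ccl3 was lost without library 5 (1.76-fold lower), and that of Ccl4, missing in the pool, was met without library 11 (2.16-fold). Fasl and Tnfsf10 (TRAIL), which encode death ligands, stood at 88.8 and 74.4 CPM in NK cells and at 116 and 50.2 CPM in CD8 T cells, and neither was called. Tnf, at 13.7 and 13.6 CPM, was under the limit for the comparison.

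Receptors for the cytokines that sustain NK cells were shared with CD8 T cells. Il2rb, the IL-2 and IL-15 receptor β chain, stood at 819 and 510 CPM (ratio 1.61) and was higher in 6 of 6 libraries, and Il2rg at 202 and 190 CPM. Il7r stood at 61.4 CPM (49.6 to 75.1) and 248 CPM, 4.05-fold lower, with NK libraries from 0 to 60.8 and CD8 libraries from 155 to 264 CPM. Outside these 6, libraries 4 and 12 held 9 and 26 Il7r UMIs in NK cells. Their levels were 710 and 242 CPM in NK cells and 309 and 387 CPM in CD8 T cells. Il21r and Il2ra were also called lower, at ratios of 0.48 and 0.49. The first call was lost without library 3 or 7 and the second without library 1, 5, 6 or 7, at values of 1.82 to 1.99-fold lower. Of 14 receptor genes, 12 entered, and none was called higher and 3 lower, beside 3.5% higher and 3.67% lower among all genes.

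Chemokine receptor genes divided. Ccr2 stood at 188 and 92.5 CPM, a ratio of 2.03 that was 3.35 without library 8 and fell below 2 without any of libraries 1, 2, 3, 5, 6, 9 or 11, to as low as 1.84. Cxcr6, a receptor of resident lymphocytes, was seen in 13 NK cells, at 17.6 CPM (11.6 to 25.6) against 183 CPM in CD8 T cells. It was 10.4-fold lower (7.12 to 15.8), and 17.6-fold without library 12, with NK libraries from 0 to 23.1 and CD8 libraries from 109 to 287 CPM. Cxcr3, Cx3cr1, Ccr7 and S1pr1, a receptor for egress from tissue, were called lower at ratios of 0.24, 0.44, 0.48 and 0.29. As the median of the 6 libraries the ratios of Cxcr3 and S1pr1 were 0.93 and 1.06, and neither was called. Counts under 3 were set at 3 in each library, which is high for few NK cells, so these medians could not decide the calls. Without the floor, Cxcr3 ran from 0 to 17.0 CPM in NK cells and from 8.67 to 50.5 CPM in CD8 T cells. S1pr1 ran from 0 to 19.6 CPM and from 12.7 to 44.2 CPM. The call of Ccr7 was lost without library 1, 5 or 6, at ratios of 0.52, 0.67 and 0.53, and without library 11 it was 4.06-fold lower.

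Of the transcription factors, Irf8 was called higher in NK cells and Tox lower. Irf8 ran from 864 through 1020 to 1173 CPM in NK cells and from 211 through 371 to 615 CPM in CD8 T cells, with no overlap and a pooled ratio of 3.02 (2.85 to 3.19). Eomes and Tbx21 (T-bet) stood at 143 and 97.6 CPM and at 72.5 and 50.1 CPM, ratios of 1.46 and 1.44, and the ratio of Eomes was 2.06 without library 8 and 2.75 as the median of the 6 libraries. Id2 stood at 548 and 504 CPM, Runx3 at 401 and 306 CPM and Tcf7 at 41.8 and 34.7 CPM. Tox, a factor of exhausted T cells, was 5.23-fold lower (3.80 to 7.41), at 24.8 and 130 CPM, with NK libraries from 9.81 to 27.0 and CD8 libraries from 94.6 to 159 CPM. Of 16 factors, 15 entered, and Irf8 and Tox were the only ones called, beside 3.5% higher and 3.67% lower among all genes.

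Of 10 genes listed for NK maturation, 8 entered the comparison, and 2 were called higher (Klrg1, Itgam) and 1 lower (Cx3cr1), with a median log2 ratio of -0.17. Among all genes the shares were 3.5% higher and 3.67% lower, to be read beside this and the next lists. Gzmb, Ly6c2, Zeb2 and Spn had the highest levels of the list, and the last 3 stood at 223 and 404 CPM, 101 and 109 CPM and 90.1 and 105 CPM. Klrg1 was found in 7.13% of NK cells and S1pr5 in 2 cells, and Itgam (CD11b) in 8.86%. The ratios of Klrg1 and Itgam were 3.30 and 2.49, and the first was 5.04 without library 8. All 10 genes listed for earlier NK cells entered, with a median log2 ratio of -0.07. From these, 1 was called higher (Cd7) and 1 lower (Il7r). Cd27, also of that list, stood at 64.6 and 123 CPM and was found in 16.0% of NK cells. Of the 41 cells with Itgam, 5 also held Cd27. Itga2 (CD49b), an integrin of conventional NK cells, was found in 7.56% of NK cells and was 10.8-fold higher than in CD8 T cells (6.81 to 17.0). Itga1 (CD49a), an integrin of ILC1 and resident NK cells, was found in 24.4%, at a ratio of 2.19 (1.86 to 2.57) that was 1.72 without library 5. Of 12 genes listed for ILC1, 11 entered, and 3 were called higher (Itga1, Tmem176a, Tmem176b) and 2 lower (Cxcr6, Il7r). Tmem176a and Tmem176b stood at 95.3 and 32.4 CPM and at 102 and 35.9 CPM, and Zfp683 had no UMI. Of 12 genes listed for the other innate lymphoid cells, 8 had no UMI in the 463 cells, among them Il23r, Il17a, Il22, Il5, Il13, Il1rl1 and Il17rb. A count of 0 allows up to 0.648% of cells with a UMI and sets no limit on cells that express the gene. The other 4, which other lymphocytes also express, were Rora (84.9 and 128 CPM), Areg (47.0 and 125 CPM), Ahr (44.4 and 29.6 CPM) and Gata3 (42.4 and 37.0 CPM), and Areg was called lower.

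Of 9 T cell genes that entered, 8 were called lower and Trdc higher, beside 3.67% lower and 3.5% higher among all genes. The selection against Cd3 and Cd8 transcripts fixed the 8 lower calls in part. Cd5 had no UMI in NK cells against 64.2 CPM in CD8 T cells, at least 32.8-fold lower at a floor of 3 counts, and Cd6 had 1 UMI against 107 CPM. Trac, the T cell receptor α constant gene, stood at 17.6 CPM (11.6 to 25.6) and 535 CPM and was 30.4-fold lower (20.9 to 46.1). Trbc1, a β constant gene, was found in 51.8% of NK cells and 52.3% of CD8 T cells. It ran from 256 through 324 to 491 CPM in the NK libraries and from 357 through 561 to 1022 CPM in the CD8 libraries. The pooled ratio was 0.49 (0.45 to 0.53), lower in 5 of 6 libraries, and the call was lost without library 3 or 8 (1.97 and 1.84-fold lower). Trbc2 stood at 164 and 999.6 CPM, and B cells held 2.33 CPM of Trbc1. Trdc, the δ constant gene, was 20.04-fold higher in NK cells (11.9 to 34.7), at 29.4 and 1.47 CPM, and 31.6-fold without library 6.

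An antibody gene was also present. Ighm, encoding the immunoglobulin μ chain, was found in 30.9% of NK cells and 11.3% of CD8 T cells, at 151 CPM (133 to 172) and 37.0 CPM. It ran from 68.7 through 149 to 221 CPM in NK cells and from 11.3 through 34.8 to 65.6 CPM in CD8 T cells, with no overlap. Igkc, the κ light chain, had 1 UMI in NK cells, 0.653 CPM, and the B cells held 25511 CPM of Igkc and 16894 CPM of Ighm.

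Checkpoint receptors of exhausted T cells were low in NK cells. Pdcd1 (PD-1) was found in 9 NK cells, 1.94%, and stood at 10.4 CPM (5.97 to 17.0) against 286 CPM, 27.4-fold lower (16.9 to 48.0). The NK libraries ran from 0 to 10.6 CPM and the CD8 libraries from 205 to 353 CPM. Lag3, Ctla4 and Havcr2 (TIM-3) were lower at ratios of 0.18, 0.32 and 0.32, each in 6 of 6 libraries. Tigit stood at 6.53 and 6.88 CPM, under the limit for the comparison. Among costimulatory receptors, Tnfrsf4 (OX40) had 4 UMIs in NK cells, 2.61 CPM against 115 CPM, and Icos and Cd28 were lower at ratios of 0.31 and 0.23.

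Tnfrsf9, which encodes 4-1BB, the target of an agonist antibody used elsewhere in the study, was found in both populations. It ran from 108 through 215 to 404 CPM in NK cells and from 227 through 305 to 467 CPM in CD8 T cells. The ranges overlapped, and the NK level was lower in 6 of 6 libraries, with a ratio of 0.74 as their median. The pooled levels were nearer, at 285 and 295 CPM, a ratio of 0.96 (0.87 to 1.06). Library 5, which gave 38.7% of the NK cells, stood at 404 and 448 CPM. UMIs were found in 37.8% of NK cells and 39.1% of CD8 T cells, against 1.24% of B cells.

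The genes of the inhibitor's target complex were present at low level. Ezh2, the methyltransferase of Polycomb repressive complex 2 that PF-06821497 inhibits, stood at 64.0 CPM in NK cells (51.9 to 78.0) and 88.4 CPM in CD8 T cells, 1.38-fold lower (1.13 to 1.71), and was lower in 5 of 6 libraries. Its NK libraries ran from 8.48 through 55.8 to 122 CPM and its CD8 libraries from 72.7 through 88.1 to 145 CPM, and overlapped. The partners Suz12 and Eed stood at 88.1 and 99.9 CPM and at 30.0 and 41.5 CPM. Cdkn2a, a known Polycomb target, had no UMI in NK cells against 20.96 CPM, at least 10.7-fold lower, or 6.90-fold without library 5. In the pool it was the sole gene called of 13 Polycomb genes and targets, 11 of which entered, beside 3.67% called lower among all genes.

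Bcl2l11, encoding the pro-apoptotic BIM, was higher in NK cells than in CD8 T cells. It ran from 250 through 356 to 483 CPM in NK cells and from 115 through 165 to 220 CPM in CD8 T cells, with no overlap. The pooled levels were 378 (348 to 410) and 164 CPM, a ratio of 2.30 (2.097 to 2.52). UMIs were found in 63.7% and 37.6% of cells, and in 19.7% and 8.78% at 500 UMIs a cell. Its anti-apoptotic counterpart Bcl2 stood at 446 and 407 CPM, Mcl1 at 302 and 344 CPM and Bcl2a1b at 376 and 546 CPM. Of 16 BCL2 family genes, 11 entered and Bcl2l11 alone was called, beside 3.5% called higher among all genes.

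Of 14 cell cycle genes, 7 were called lower in NK cells and none higher, with a median log2 ratio of -0.87. Among all genes 3.67% were called lower and 3.5% higher. Mki67 was found in 7.78% of NK cells (5.50 to 10.6%) and 18.4% of CD8 T cells, at 62.0 and 151 CPM, with NK libraries from 42.4 to 98.3 and CD8 libraries from 125 to 298 CPM. At least 2 of Mki67, Top2a, Birc5 and Cdk1 were seen in 7.13% of NK cells, 18.6% of CD8 T cells and 2.24% of B cells. The calls of Top2a and Hmgb2 were lost when 1 of several libraries was left out (1, 3 or 12 for Top2a, and 3, 5 or 9 for Hmgb2, at 1.89 to 1.95-fold). In the 113 NK cells with both selecting genes 6 of the 7 calls were lost, at ratios of 0.58 for Ccna2, 0.59 for Ccnb1, 0.65 for Birc5, 0.67 for Hmgb2 and 0.68 for Mki67 and Top2a, and Mki67 was found in 12.4% of those cells. The ratio of Ccnb1 was 0.92 as the median of the 6 libraries. Counts under 3 were there set at 3, so this median could not decide the call. Without that floor Ccnb1 ran from 0 to 27.0 CPM in NK cells and from 19.3 to 34.7 CPM in CD8 T cells. Of 10 interferon-induced genes, 4 were called lower and none higher, and 2 of the 4 calls were lost when 1 library was left out. Ifi27l2a stood at 395 and 1806 CPM, 4.57-fold lower (4.22 to 4.97), with no overlap between 88.3 to 797 and 854 to 2181 CPM. Ifit3, Ifit1 and Ifit2 had ratios of 0.23, 0.43 and 0.46. The call of Ifit1 was lost without library 8 (1.74-fold) and that of Ifit2 without library 5 or 8 (1.79 and 1.86-fold), while Isg15, Irf7, Gbp2 and Rsad2 had ratios of 0.90, 0.93, 0.97 and 1.18.

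Of 10 glycolysis and hypoxia genes, 9 entered and Vegfa alone was called, beside 3.5% called higher among all genes. Vegfa, the main endothelial growth factor and a hypoxia target, was found in 47.1% of NK cells (42.5 to 51.7%), 7.53% of CD8 T cells and 5.22% of B cells. It ran from 157 through 265 to 331 CPM in NK cells and from 19.5 through 22.4 to 70.7 CPM in CD8 T cells, with no overlap and a ratio of 8.79 (7.67 to 10.1). Of the others, Ldha stood at 540 and 581 CPM, Pgk1 at 259 and 323 CPM and Hif1a at 138 and 206 CPM. Vegfc was found in 7.78% of NK cells and 0.102% of CD8 T cells, and Pdgfa, which also encodes a growth factor, was 13.9-fold higher (9.90 to 19.7), or 25.2-fold without library 6. Among genes with the same direction in 6 of 6 libraries, the 15 highest ratios were those of Klra4, Klra8, Khdc1a, Vegfc, Klra7, Klra1, Gzmc, Osbpl1a, Gstm1, Atp1b1, Klrb1f, Trdc, Klrb1a, Klra9 and Cxxc5. Khdc1a, with 31 UMIs against 3, was 106-fold higher (33.0 to 541). The 15 lowest of that kind were Gm8369, Themis, Cd6, Tnfrsf4, Gzmk, Tcrg-C2, Cd5, Trac, Pdcd1, Penk, Igkc, Nrn1, Plcg1, Trgv2 and Bcl11b. Gm8369, with 4 UMIs in NK cells, stood at 2.61 CPM against 202 CPM.

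Transcripts of other cell types were present in NK cells and in CD8 T cells. The 12 macrophage genes summed to 3833 CPM in NK cells, 3028 CPM in CD8 T cells and 18254 CPM in the cells with none of the selecting or excluded genes, and none of the 12 was called. Over the 6 libraries the sum ran from 1060 to 12054 CPM in NK cells and from 1078 to 9474 CPM in CD8 T cells. In the 434 NK cells with at least 2 lineage genes it was 2592 CPM, under the level of CD8 T cells, and in the 113 cells with both selecting genes 1154 CPM. The highest values of both populations were in library 6, where the 20 NK lineage genes summed to 4680 CPM in NK cells, less than the macrophage genes. Library 9, outside the 6, held 10428 CPM of the macrophage genes in 17 NK cells and 940 CPM in CD8 T cells. Of the other smaller libraries, 4 and 12 were also higher in NK cells, and 8, 10 and 11 were lower. The 12 dendritic cell genes summed to 5102 CPM in NK cells, 3709 CPM in CD8 T cells and 15391 CPM in B cells, and over the 6 libraries from 610 to 9425 CPM in NK cells and from 1650 to 8781 CPM in CD8 T cells. The 29 NK cells with fewer than 2 lineage genes held 23965 CPM of them and the other 434 held 3770 CPM, near the level of CD8 T cells. Most of this was Cd74, H2-Ab1 and H2-Aa, of MHC class II presentation, at 2135, 1361 and 1190 CPM in NK cells, while Flt3, Xcr1 and Clec9a had 10, 20 and 6 UMIs. Lyz2 stood at 856 and 466 CPM, a ratio of 1.84 that ranged from 1.08 without library 9 to 2.62 without library 6. It was 0.81 in the cells with at least 2 lineage genes and 0.48 in those with both selecting genes, where C1qa, at a ratio of 1.39 in all NK cells, had ratios of 0.90 and 0.31. Apoe was found in 78.6% of NK cells and 82.8% of CD8 T cells, and at 500 UMIs a cell in 33.0 and 36.2%, and in 43.5% of B cells. The 10 neutrophil genes summed to 170 CPM and 241 CPM, with NK libraries from 0 to 785 CPM, and the defining Ly6g was at 0. The 7 basophil and mast cell genes summed to 3.92 CPM in NK cells and 5.42 CPM in CD8 T cells, with 3 UMIs of Il6, 2 of Cpa3 and 1 of Mcpt8, and the defining Fcer1a was at 0. The 5 red blood cell genes summed to 0.653 and 1.402 CPM, from 1 UMI of Hbb-bs in NK cells. The B cell list summed to 156 and 87.2 CPM, most of it Ighm in NK cells, where Cd79b had 4 UMIs and Ms4a1 had 2, and Pax5 and Jchain were at 0. The part of these transcripts in the differences above was not tested.

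A further 155 cells held UMIs of a Cd3 gene and of Ncr1 or Klrb1c together, and none of Cd79a, Siglech, Adgre1 or Csf1r. Their levels of Gzma, Klra4, Tyrobp and Fcer1g lay between those of NK cells and CD8 T cells, and their level of Prf1 lay below both. Against them, 238 of 5985 genes were at least 2-fold higher in NK cells (3.98%) and 185 lower (3.09%), and their median depth was 3338 UMIs. Gzma stood at 3135 CPM in NK cells and 705 CPM in these T cells, Klra4 at 281 and 77.6 CPM, Tyrobp at 1645 and 664 CPM, Fcer1g at 2041 and 956 CPM and Prf1 at 398 and 124 CPM. Klra7 and Klra9 did not separate them, at 249 and 228 CPM and at 117 and 194 CPM, and Bcl2l11 stood at 378 and 338 CPM. Trac, Il7r and Pdcd1 were lower in NK cells, at 17.6 and 284 CPM, 61.4 and 374 CPM, and 10.4 and 126 CPM. Of the 155 cells, 60 came from library 5. Pairs of an NK cell and a T cell in a droplet would meet the same conditions, and their part was not tested.

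The NK cells differed among themselves in granzyme C and CCL5. Gzmc was found in 181 of the 463 cells and not in the other 282, and the division was chosen after the values had been seen, so it is a description. Cells with Gzmc were deeper (median 3217 UMIs against 1900) and had UMIs of a median of 8 lineage genes, as had those without, and the 20 lineage genes summed to 6727 CPM with Gzmc and 11812 CPM without. Ccl5 stood at 228 CPM in cells with Gzmc and 4651 CPM in cells without, 20.4-fold lower (17.5 to 23.9). In library 3 these levels were 500 and 3264 CPM, in library 5 they were 107 and 2716 CPM, in library 6 they were 292 and 1879 CPM and in library 7 they were 302 and 9322 CPM. Only these 4 libraries held 10 or more of each kind. In all 4 the cells without Gzmc had the higher level and the 2 ranges did not overlap. Of the cells with Ccl5, 16.1% held Gzmc, against 65.9% of the cells without Ccl5.

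Gzma followed Ccl5. It stood at 1057 CPM in cells with Gzmc and 5170 CPM in cells without, 4.89-fold lower (4.54 to 5.29), and was lower in 4 of 4 libraries. Of 3144 genes with at least 50 CPM in either, 72 were at least 2-fold higher with Gzmc (2.29%) and 227 lower (7.22%). Integrins divided as well. Itga2 (CD49b) had 1.32 CPM in cells with Gzmc and 53.0 CPM in cells without, and Itgam (CD11b) 6.60 and 71.1 CPM, both lower in 4 of 4 libraries. Itga1 (CD49a) stood at 177 and 68.5 CPM, a ratio of 2.58 (1.86 to 3.62), and was higher in 3 of 4 libraries. Whether the cells with Gzmc were conventional NK cells or ILC1 was not tested. Cd7, Cxcr4 and Klra4 were lower with Gzmc in 4 of 4 libraries, at 30.3 and 114, 71.2 and 283, and 158 and 401 CPM.

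Cells with Gzmc had more Tnfrsf9, at 415 and 156 CPM (ratio 2.66, 2.15 to 3.30), in 4 of 4 libraries. The same held for Tnfsf10, encoding TRAIL, at 108 and 41.4 CPM, for Thy1 at 401 and 171 CPM, for Cst7 at 292 and 99.5 CPM and for Ighm at 224 and 80.1 CPM. The highest ratios in 4 of 4 libraries were those of Cd55, Tmem156, Igha, Sec61a2, Sema6d, Pglyrp1, Cant1, Pdgfa and Gne, from 8.68 down to 3.35. Xcl1 stood at 1666 and 738 CPM and Gzmb at 1369 and 783 CPM, each higher in 3 of 4 libraries, and Prf1 at 504 and 295 CPM, higher in 2 of 4. Without library 5 the levels were 1005 and 836 CPM for Gzmb and 358 and 321 CPM for Prf1. Eomes stood at 120 and 165 CPM, 1.38-fold lower (1.05 to 1.82), in 4 of 4 libraries. The macrophage genes summed to 2572 and 5068 CPM, and Lyz2 was lower with Gzmc, at 375 and 1328 CPM.

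**Figure D5:**
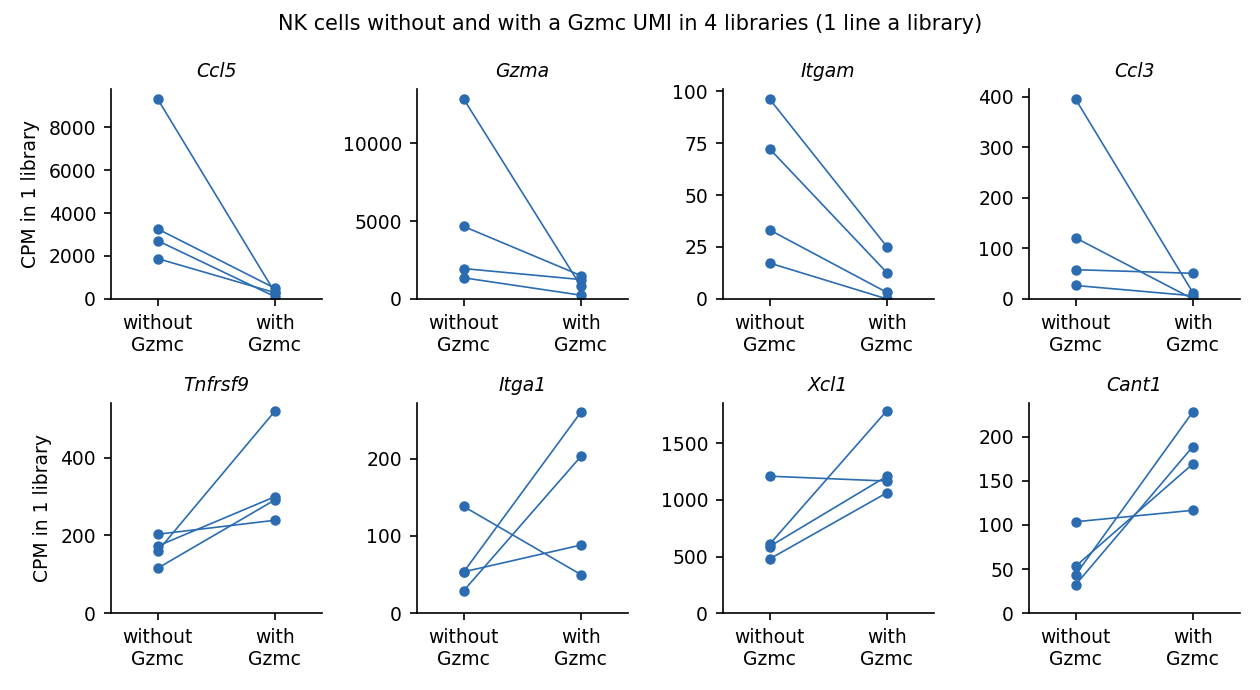
CPM of 8 genes in NK cells without and with a Gzmc UMI, 1 line for each of the 4 libraries in which each kind numbers 10 or more, on linear axes from 0. Ccl5, Gzma, Itgam and Ccl3 are lower with Gzmc in every line, Tnfrsf9 and Cant1 are higher in every line, and Itga1 and Xcl1 are higher in 3 of 4.

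Other divisions of the cells gave these values, as a description of genes already chosen from the first. Among cells with at least 2 lineage genes, Ccl5 stood at 227 CPM with Gzmc and 5291 CPM without, Gzma at 1058 and 5936 CPM, Itga2 at 1.32 and 60.8 CPM and Tnfrsf9 at 415 and 175 CPM. With the limit at 10 Gzmc UMIs, Ccl5 stood at 126 and 3878 CPM. Without library 5, which gave 94 of the 181 cells, Ccl5 stood at 317 and 5119 CPM, Tnfrsf9 at 339 and 156 CPM and Itga1 at 116 and 72.2 CPM, so that Itga1 no longer differed 2-fold. By library, Gzmc was found in 0% of the 4 cells of library 4 and of the 4 cells of library 8, and in up to 52.5% of the cells of library 5.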

How the data were processed

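From CD45+ cells in 10x Genomics 3' v3 libraries the authors deposited 1 matrix of UMI counts (genes by barcodes, all libraries, not normalized). The submitters' processing notes name Cell Ranger 2.1.1, Seurat and the build mm10, while the matrix header names software version 3.0.2. For the annotation behind the counts, the sources used here name none. The counts were used as deposited. No label ties the libraries to mice or groups, so no test was run. The gene lists, the members and the named genes were chosen with earlier results of these data known. Named were the 4 given markers (Ncr1, Klrb1c, Gzma, Klre1), of each list the 4 genes of highest CPM in NK cells and those called at 2-fold, the 15 highest and 15 lowest ratios with the same direction in every library with at least 20 cells of both kinds, and genes the study discusses. CPM are UMIs summed over cells scaled to a total of 1000000. A population with under 3 counts was set at a floor of 3 counts. A gene that entered through the population where it is high had to differ, so list counts are descriptions, read against the share of all genes called.

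Shares have exact Clopper-Pearson and levels exact Poisson intervals at 95%. They cover counting error only, and neither animals nor libraries. For shares at equal depth, 500 UMIs were drawn from every cell, and no cell of the populations compared was shallower. No doublets were removed. Identifiers were looked up in GENCODE M21, which held 99.9% of them, and positions are those of mm10. Some genes of the lists are not reported here. Aldoa occurs under more than 1 identifier and is not reported. Scripts ran in Python 3.11.15 with numpy, scipy and pandas, and the calls and intervals were checked on simulated counts. These were Poisson counts with no spread between cells or libraries, so the check could not cover such spread. Alternatives were other selection limits, each library left out, libraries weighted equally, other CPM and fold limits, and, chosen after seeing the data, other divisions by Gzmc and T cells with an NK receptor UMI as the comparison.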

Additional observations from a re-analysis of the deposited data

How the results depend on the processing

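The number of NK cells depended on the selection. It was 198 with at least 2 UMIs of Ncr1 and Klrb1c, 113 with both genes, 287 with a mitochondrial limit of 5% and 434 with at least 2 lineage genes, and 284 to 459 with 1 library left out (the lowest without library 5). The number of genes called higher than in CD8 T cells was 108 at a limit of 50 CPM, 5333 with no limit (genes at 0 counts then stand at the floor), 71 at 4-fold, 121 with the same direction in every library with at least 20 cells of both, and 185 to 268 with 1 library left out. The number called lower was 98, 667, 61 and 206 to 249, and 362 in cells with both selecting genes. What raised the last number was not tested.

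Of 113 called ratios of named genes, 105 kept their direction under all 17 alternatives run on them. With 1 library left out, Gzmd ran from 0.96 to 9.64, Gzme from 0.66 to 6.67 and Gzmg from 0.59 to 66.5, the lowest without library 5 and the highest without library 3. In cells with both selecting genes Gzme had a ratio of 0.74 and Ccl9 of 0.33, and in cells with at least 2 lineage genes Ccl9 had a ratio of 0.68. As the median of libraries, Slamf6, S1pr1, S100a8 and Cdkn2a had ratios of 1.07, 1.06, 1.22 and 1.12, because the floor of 3 counts is high in a library of few NK cells. The floor entered the NK counts of Cxcr3 and Ccnb1 as well. Of the 113 calls, 12 were lost with at least 2 UMIs of the selecting genes, 19 with both genes (6 of 7 cell cycle genes among them), 6 with at least 2 lineage genes, 9 at a mitochondrial limit of 5% and 24 as the median of libraries. Calls lost in the last way included Ccl5, Cxcr3, Klra5, Itga1, Ccl22, Igkc, Penk, Nrn1, Plcg1 and Trgv2. Fcgr3 and Ccr7 lost theirs under all 4 other selections. Libraries could not be paired across groups, because they carry no replicate number of a mouse. Directions and median ratios by library compare the NK cells and CD8 T cells of the same library. Depth limits single genes: a gene at 0 in the 463 cells may reach 1.96 CPM, and Ncr1 was missed in 226 cells that had Klrb1c.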

Other observations

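Heat shock and immediate early genes, which respond to cell isolation, were mostly within 2-fold of CD8 T cells in NK cells. Junb stood at 1369.5 and 1100.4 CPM, Dusp1 at 356 and 260 CPM and Fos at 204 and 164 CPM, and of 13 such genes that entered the comparison 2 were called lower, Hspa1a and Hspa1b, at 35.2 and 89.2 CPM and at 24.2 and 53.7 CPM. The call of Hspa1b was lost without library 8 (1.74-fold lower), and among all genes 3.67% were called lower.

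Pecam1 (CD31), listed here among stromal and endothelial genes, was found in 22.03% of NK cells and 5.54% of CD8 T cells, at 108 and 15.6 CPM, and was higher in 6 of 6 libraries. Of the other 7 genes of that list, Epcam had 21 UMIs in 13 NK cells, 13.7 CPM against 11.98 CPM in CD8 T cells, Col1a1, Col1a2 and Krt8 had 1 UMI each, and Sparc, Krt18 and Krt19 had none. Cant1, a nucleotidase gene, stood at 118 and 18.2 CPM, a ratio of 6.51 (5.37 to 7.87), and ran from 98.1 to 142 CPM in the NK libraries and from 7.70 to 25.2 CPM in the CD8 libraries.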
